A study of Homo sapiens with 4 samples.

Results

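Senescence driven by oncogenic RAS was set directly against the state reached after expression of a cleaved form of histone H3.3, in IMR90 cells, a human lung fibroblast line. The question was which genes separate these states at the level of poly(A) RNA. The comparison covers every named locus with an FPKM (a fragment count divided by transcript length and by library size) of at least 1 in either library: 11836 of the 24158 named loci, and of 26468 loci in all. Each state is 1 library, so every difference below describes these libraries, has no replicate check and carries no p-value, SD or SE.

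The library of oncogene-induced senescence (OIS) came from cells carrying a retroviral ER:RasV12 construct, a fusion through which tamoxifen switches on H-RasV12, kept in 10 nM tamoxifen for 8 days. The H3.3cs1 late library came from cells infected with a retrovirus for Flag-tagged cleaved H3.3 and taken 13 days after infection. Libraries of growing cells with the empty pBabe vector (day 13) and of H3.3cs1 cells 3 days after infection (H3.3cs1 early) give reference levels. All 4 were at passage 16, all were grown in the same medium, and each is a population of cells infected by retrovirus. OIS and H3.3cs1 late differ at once in vector and in tamoxifen, and these cannot be told apart from the oncogene or the histone. Their times count from different events, 8 days in tamoxifen and 13 days after infection. The labels do not give the day of OIS after infection, so any difference in time in culture cannot be told apart either. Libraries of vector cells at day 3, of vector cells given tamoxifen and of ER:RasV12 cells without tamoxifen were not analysed here.

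Cellular senescence is a lasting exit from the cell cycle held by the CDK inhibitors p21 and p16 and by the RB family. With oncogenic RAS it comes with strong ERK signalling and with a senescence-associated secretory phenotype (SASP), in which NF-kappaB and C/EBP beta drive genes of cytokines, chemokines, proteases and growth factors. H3.3 is a histone H3 variant that can be placed into chromatin outside S phase as well as within it, and its cleaved form lacks part of the N-terminal tail.

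The promoters of 4 genes among the largest differences in either direction are shown first, and each carries letters of a motif class named below. IL1B, MMP3 and CXCL5, with larger differences than CXCL1, are not shown. These 4 promoters were picked by hand, so they do not show how common such letters are among the leading genes. They are the RefSeq sequences (GRCh38.p14) from 250 bases before to 50 after the gene's start, 5′ to 3′ on the gene's strand. CXCL8 is the current symbol of IL8, which the files use. CXCL8 lies at chr4:73740319-73740618 on the plus strand, CXCL1 at chr4:73869143-73869442 on the plus strand, ANKRD1 at chr10:90921038-90921337 on the minus strand and CPA4 at chr7:130292911-130293210 on the plus strand. Capitals mark AP-1 letters (TGANTCA) in CXCL8, overlapping kappaB matches on opposite strands in CXCL1, TEAD (GGAATG), AP-1 and TEAD letters in that order in ANKRD1, and TEAD followed by a pair of AP-1 matches in CPA4. The kappaB letters searched were GGGRNNYYCC, where R is A or G and Y is C or T. Near matches stay in lower case, such as tggaatttcc in CXCL8, which misses that pattern only at its first base. Lower case therefore does not mean that a promoter lacks an element of that class.
CXCL8: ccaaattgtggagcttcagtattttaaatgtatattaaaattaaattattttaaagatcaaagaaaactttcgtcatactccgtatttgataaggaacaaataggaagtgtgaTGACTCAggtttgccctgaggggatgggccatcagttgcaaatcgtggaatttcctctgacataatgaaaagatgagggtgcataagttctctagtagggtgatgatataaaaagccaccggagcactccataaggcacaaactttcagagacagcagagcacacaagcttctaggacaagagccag
CXCL1: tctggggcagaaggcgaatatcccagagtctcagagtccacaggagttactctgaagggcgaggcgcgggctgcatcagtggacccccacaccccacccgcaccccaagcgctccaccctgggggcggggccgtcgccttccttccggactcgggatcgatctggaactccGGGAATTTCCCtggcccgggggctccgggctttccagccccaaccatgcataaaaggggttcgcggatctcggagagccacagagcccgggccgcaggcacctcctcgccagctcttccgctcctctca
ANKRD1: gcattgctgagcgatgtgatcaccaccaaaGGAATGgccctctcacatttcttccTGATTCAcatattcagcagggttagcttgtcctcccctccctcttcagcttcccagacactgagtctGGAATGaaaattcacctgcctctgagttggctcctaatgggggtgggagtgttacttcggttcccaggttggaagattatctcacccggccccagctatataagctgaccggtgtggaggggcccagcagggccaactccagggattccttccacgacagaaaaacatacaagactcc
CPA4: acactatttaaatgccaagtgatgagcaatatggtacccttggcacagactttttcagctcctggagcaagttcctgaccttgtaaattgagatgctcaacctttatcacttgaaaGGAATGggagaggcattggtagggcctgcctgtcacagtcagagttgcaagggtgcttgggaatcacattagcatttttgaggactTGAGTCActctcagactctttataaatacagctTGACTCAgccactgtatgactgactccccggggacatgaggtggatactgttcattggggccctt
IL8 and CXCL1 stood far higher in OIS, ANKRD1 and CPA4 far higher in H3.3cs1 late, and their values are given below. Over all promoters matched to compared loci (9003 loci matched), both strands searched, AP-1 letters were in 7.76% of 1494 promoters of loci higher in OIS, 6.64% of 1189 promoters of loci higher in H3.3cs1 late, 4.66% of 10498 promoters of loci within 2-fold, and 7.71% of all 35116 promoters of the table. For kappaB those shares were 14.7%, 11.4%, 13.3% and 11.3%. TEAD letters were in 11.0%, 14.8%, 11.0% and 14.0%. The CArG box of serum response genes was in 1.47%, 2.10%, 1.07% and 1.29%, and the CRE (TGACGTCA) in 2.74%, 1.93%, 3.00% and 1.85%. These are counts of letters in a short window and mark no binding site.

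Between 11106 and 11306 named loci per library reached an FPKM of 1. Loci without a gene name held between 47.4% and 57.9% of the summed FPKM and were left out. HRAS, the gene of the ER:RasV12 construct, matched the label: it stood at 3153 FPKM in OIS and 41.9 in H3.3cs1 late, beside 47.4 in growing and 49.8 in H3.3cs1 early. H3F3B encodes H3.3 and stood at 90.5 FPKM in OIS and 449.7 in H3.3cs1 late, beside 105 in growing and 229 in H3.3cs1 early, which put H3.3cs1 late 4.92-fold above OIS. The FPKM of a locus does not separate the transcript of a construct from that of the cell's own gene, and the labels do not name the gene from which H3.3cs1 was made. H3F3A, which also encodes H3.3, was at 236 FPKM in OIS and 132 in H3.3cs1 late, and CTSL1, the gene of the protease cathepsin L, at 101 FPKM in OIS and 57.8 in H3.3cs1 late, both within 2-fold.

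Fibroblast genes were abundant in both libraries, with VIM, the gene of vimentin, at 2858 FPKM in OIS and 2291 in H3.3cs1 late. Of 15 fibroblast identity genes, all reached 1 FPKM in both libraries, 2 were at least 2-fold higher in OIS and 7 in H3.3cs1 late. Unlike VIM, 11 of the 15 were lower in OIS than in H3.3cs1 late. The list's median difference, OIS minus H3.3cs1 late in log2(FPKM + 1), was -0.65. Its summed level was 5633 FPKM in OIS and 11899 in H3.3cs1 late. Of 17 epithelial markers 1 was higher in OIS and 4 in H3.3cs1 late (KRT18, KRT19, KRT7 and MUC1), their summed level was between 25.0 and 196 FPKM over the 4 libraries. KRT18 was at 170.4 FPKM in H3.3cs1 late and 79.97 in growing, and KRT5, SCGB1A1, ESRP1 and NKX2-1 were listed at 0 in every library. Of 13 endothelial markers 3 were higher in OIS and none in H3.3cs1 late, and their sum was between 1.52 and 22.8 FPKM. CLDN5 at 11.6 FPKM in OIS, ROBO4 at 4.47 and TIE1 at 4.05 made up most of the OIS sum, while CDH5, the defining VE-cadherin gene, was listed at 0 in all 4 libraries and PECAM1 was at 0.115 FPKM in OIS and 0 in the others. Of 16 leukocyte markers 1 was higher in OIS, the locus CD68,MPDU1, which holds nearly all of their summed 40.7 to 91.1 FPKM (it was within 2-fold after rescaling to the same sum), and CD3D, MS4A1, FCGR3A, TYROBP and AIF1 were listed at 0 throughout. Genes that cells use widely are also listed at 0 in single libraries here, so a listed 0 is not read as absence. In these bulk samples fewer cells of a type and less RNA per cell cannot be told apart.

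Values were compared as log2(FPKM + 1), OIS minus H3.3cs1 late, so a positive difference means higher in OIS. Folds are on that scale and understate the difference of low genes. A locus is called higher where it differs by at least 2-fold (1 on the log2 scale). Of the 11836 loci, 1373 (11.6%) were higher in OIS, 1051 (8.88%) were higher in H3.3cs1 late and 9412 lay within 2-fold. Of the loci apart, 56.6% were higher in OIS. That split depended on scaling: it was 41.1% after rescaling both libraries to the same sum of named loci, 47.9% after centring on the median and 49.2% after quantile normalization. The median over all compared loci was 0.107 as deposited and -0.107 after rescaling to the same sum, and list medians below are to be read against it. Gene lists are counted over all listed genes, also those under 1 FPKM in both libraries, which cannot reach 2-fold on this scale, and their counts are to be read beside the 11.6% and 8.88% of all compared loci.

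At least 16-fold apart, on the values as deposited, were 91 loci higher in OIS and 45 higher in H3.3cs1 late. Among loci at 100 FPKM or more in the higher library, 169 were higher in OIS and 148 in H3.3cs1 late. Of the called loci 118 had a listed value of 0 on one side (54 in OIS, 64 in H3.3cs1 late), and for those values are given without a fold, since a 0 in these files can be a failed estimate. Among 590 compared loci that join several genes 49 were called each way.

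**Figure D1:**
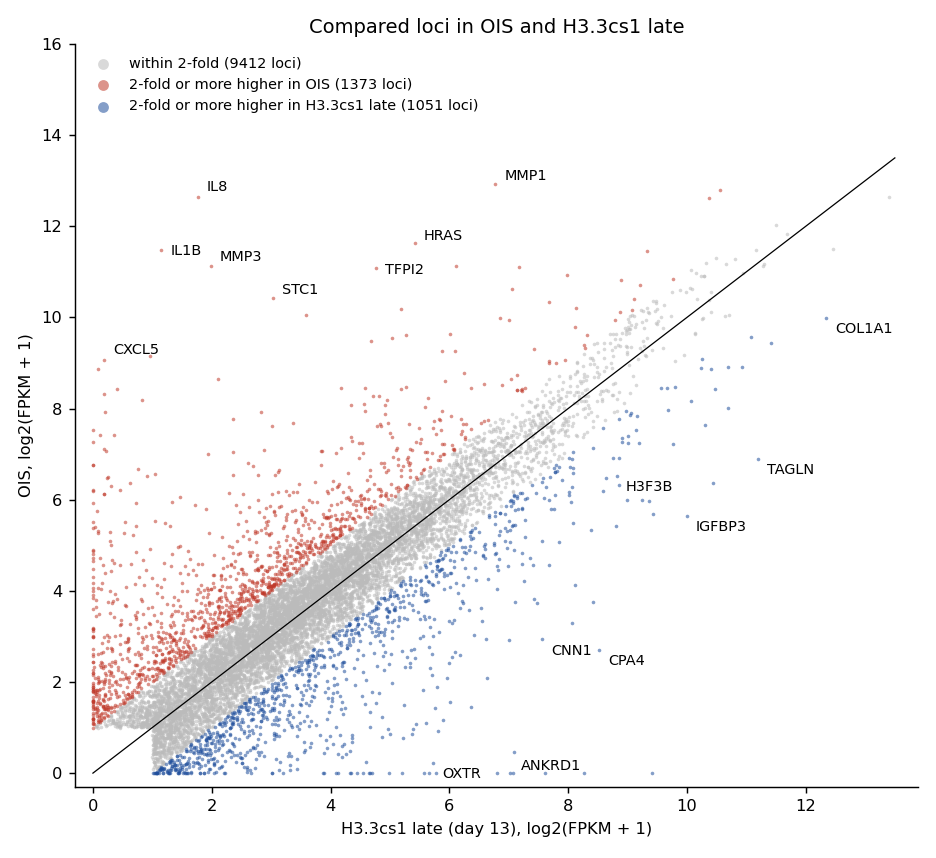
Each point is 1 of the 11836 compared loci, with its level in H3.3cs1 late on the x axis and in OIS on the y axis, both log2(FPKM + 1). The line marks equal levels. The 1373 loci at least 2-fold higher in OIS (red) reach further from the line than the 1051 higher in H3.3cs1 late (blue), with IL8 and IL1B at the top left and ANKRD1 and OXTR at the bottom.

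Against the other pairs of libraries this was the pair furthest apart by count, on the values as deposited. Over the 12257 named loci with 1 FPKM or more in any of the 4 libraries, OIS and H3.3cs1 late were at least 2-fold apart at 2424 loci (19.8%), growing and OIS at 2131 (17.4%), and OIS and H3.3cs1 early at 1962 (16.0%). Growing and H3.3cs1 late were apart at 1098 (8.96%), H3.3cs1 early and late at 1092 (8.91%), and growing and H3.3cs1 early at 661 (5.39%). These pairs share libraries, so their counts are not independent of each other. The counts were not repeated after rescaling.

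Among loci of 1 gene that were above 0 in both libraries and at 5 FPKM or more in the higher, small and other non-coding RNAs and clone names left out, the 15 largest differences towards OIS were mostly secreted inflammatory factors. IL8, the neutrophil-attracting chemokine, stood at 6433 FPKM in OIS and 2.40 in H3.3cs1 late, beside 3.65 in growing and 4.19 in H3.3cs1 early, which is 1890.2-fold apart. IL1B, an upstream inflammatory cytokine of the SASP, stood at 2869 FPKM in OIS and 1.22 in H3.3cs1 late, beside 1.74 in growing and 2.50 in H3.3cs1 early. MMP3, the protease stromelysin, was at 2226 FPKM in OIS and 2.96 in H3.3cs1 late. In each of these the H3.3cs1 late level lay close to that of growing cells and OIS stood alone. CXCL5 (536 against 0.141 FPKM), CXCL1 (467 against 0.0636 FPKM) and CXCL3 (341 against 0.325 FPKM) are further neutrophil chemokines. CSF2 (567 against 0.955 FPKM) and CSF3 (316 against 0.137 FPKM) encode colony-stimulating factors, TNFSF15 (243 against 0.148 FPKM) a TNF family ligand, and CCL20 (169 against 0.0857 FPKM) a chemokine for lymphocytes. STC1, a secreted glycoprotein hormone, was at 1379 FPKM in OIS and 7.16 in H3.3cs1 late, beside 35.9 in growing and 11.5 in H3.3cs1 early, so H3.3cs1 late was below growing while OIS was above it. PTGS2 (292 against 0.766 FPKM) encodes the inducible cyclooxygenase and BMP2 (170.4 against 0.284 FPKM) a bone morphogenetic protein. CST1 (138 against 0.143 FPKM), a cystatin, and LCE1F (132 against 0.161 FPKM), a late cornified envelope gene, completed the 15.

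Towards H3.3cs1 late the 15 largest differences among such loci were of mixed kinds. They included the contractile genes CNN1 and LMOD1 and the TGF-beta ligand gene TGFB2. ANKRD1, a muscle ankyrin repeat protein and a known YAP target, stood at 0.382 FPKM in OIS and 135 in H3.3cs1 late, beside 8.07 in growing and 4.31 in H3.3cs1 early, which is 98.3-fold apart. CPA4, a carboxypeptidase, stood at 5.50 FPKM in OIS and 368 in H3.3cs1 late, beside 57.9 in growing and 78.7 in H3.3cs1 early. OXTR, the oxytocin receptor, stood at 0.165 FPKM in OIS and 52.2 in H3.3cs1 late, beside 22.7 in growing and 10.4 in H3.3cs1 early. In all 3, H3.3cs1 late was the highest of the 4 libraries and OIS the lowest. KISS1 (kisspeptin) was at 1.73 FPKM in OIS and 81.5 in H3.3cs1 late, beside 73.005 in growing and 5.43 in H3.3cs1 early, so there the late level was close to growing and OIS was low. MAMDC2 (0.890 against 55.3 FPKM), MEST (8.85 against 268 FPKM), CCDC80 (12.6 against 343 FPKM), ATP8B1 (3.22 against 98.5 FPKM), ITGBL1 (0.809 against 40.2 FPKM) and MGARP (0.957 against 40.97 FPKM) followed the same direction. CNN1, the smooth muscle calponin, was at 6.68 FPKM in OIS and 188 in H3.3cs1 late and LMOD1, leiomodin, at 0.696 FPKM in OIS and 36.5 in H3.3cs1 late. TGFB2, a TGF-beta ligand, was at 1.15 FPKM in OIS and 47.5 in H3.3cs1 late, and EDN1, the vasoconstrictor endothelin 1, at 1.94 FPKM in OIS and 63.8 in H3.3cs1 late. IGFBP3, which binds insulin-like growth factors, stood at 48.8 FPKM in OIS and 1023 in H3.3cs1 late, beside 296 in growing and 35.8 in H3.3cs1 early.

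**Figure D2:**
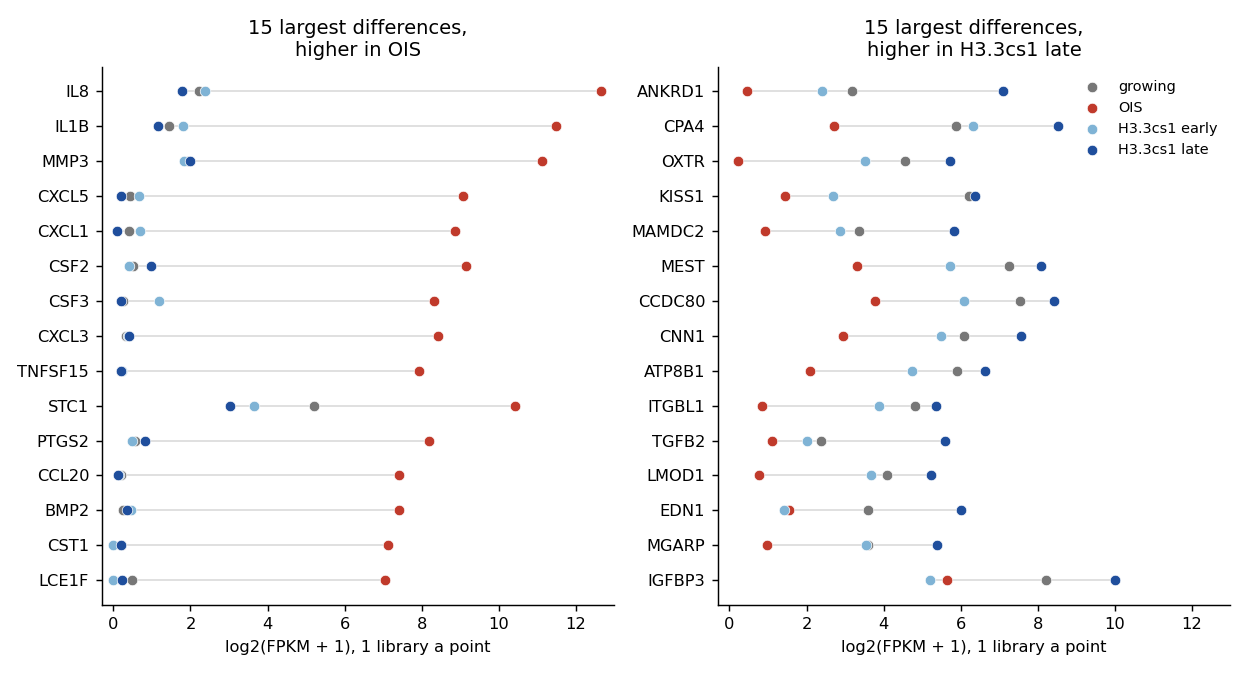
Levels, as log2(FPKM + 1) on the x axis, of the 15 genes with the largest difference in each direction, 1 point a library. On the left the growing, H3.3cs1 early and H3.3cs1 late points lie together for most genes and OIS stands far to the right, and on the right H3.3cs1 late is the highest point and OIS the lowest for every gene but EDN1 and IGFBP3, whose H3.3cs1 early level is lower still.

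The most abundant transcripts shifted too. MMP1, interstitial collagenase, was the highest named locus in OIS, with 7849 FPKM in OIS and 108 in H3.3cs1 late, beside 416 in growing and 52.9 in H3.3cs1 early. TIMP1, an inhibitor of such proteases, stood at 7098 FPKM in OIS and 1507 in H3.3cs1 late, and MT2A, a metallothionein, at 6311 FPKM in OIS and 1323 in H3.3cs1 late. In H3.3cs1 late the leading loci included COL1A1, a chain of collagen I (1012 against 5172 FPKM), and ACTB, cytoplasmic actin (2916 against 5623 FPKM), the latter 1.93-fold apart and so within 2-fold. The locus HSP90B1,MIR3652 led H3.3cs1 late (6389 against 10787 FPKM) and joins 2 genes, so the value does not stand for HSP90B1 alone. GAPDH (3652 against 3299.7 FPKM) and LGALS1, a galectin (4146 against 2884 FPKM), lay within 2-fold.

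Genes of cell division were far lower in both libraries than in growing cells. The median level of the mitosis genes was 25.8 FPKM in growing, 0.502 in OIS and 1.19 in H3.3cs1 late. Of 34 mitosis genes 1 was higher in OIS and 3 in H3.3cs1 late (1 and 5 after rescaling to the same sum). Of the 34, 30 lay below 0, and the median difference was -0.39. That median was -0.84 with a pseudocount of 0.1 and turned to 0.53 over the 4 members at 5 FPKM or more in either library. CDK1, the kinase that starts mitosis, stood at 0.442 FPKM in OIS and 1.07 in H3.3cs1 late, beside 31.3 in growing and 5.74 in H3.3cs1 early. TOP2A, topoisomerase II alpha, stood at 1.25 FPKM in OIS and 1.41 in H3.3cs1 late, beside 44.2 in growing and 10.1 in H3.3cs1 early. PLK1 (0.647 against 2.44 FPKM), ANLN (0.816 against 3.59 FPKM) and CCNB2 (0.524 against 2.14 FPKM) were the members higher in H3.3cs1 late, and the checkpoint gene MAD2L1 (4.79 against 1.32 FPKM) the one higher in OIS. Of the 34 genes, 19 reached 1 FPKM in either library, as every compared locus did. On that footing 1 of 19 was called towards OIS, where 11.6% of all compared loci were called. Towards H3.3cs1 late 3 of 19 were called, where 8.88% of all compared loci were. Most members lay below 1 FPKM in at least 1 library, where this scale gives small differences. Of 36 genes of DNA replication and nucleotide supply 1, CDT1, a licensing factor (3.13 against 0.843 FPKM), was higher in OIS and none in H3.3cs1 late (1 after rescaling to the same sum), with a median of -0.011. PCNA, the replication clamp, stood at 23.6 FPKM in OIS and 25.2 in H3.3cs1 late, beside 67.9 in growing and 47.4 in H3.3cs1 early. The joined locus BBS7,CCNA2, which holds cyclin A2, was at 8.81 FPKM in OIS and 6.98 in H3.3cs1 late.

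Inhibitors of the cell cycle stood above the growing level in both libraries and within 2-fold of each other. CDKN1A (p21) stood at 1500.2 FPKM in OIS and 859 in H3.3cs1 late, beside 363 in growing and 612 in H3.3cs1 early. CDKN2A (the p16 and ARF locus) stood at 59.8 FPKM in OIS and 43.5 in H3.3cs1 late, beside 18.1 in growing and 25.3 in H3.3cs1 early, and CDKN2B (p15) at 37.3 FPKM in OIS and 20.5 in H3.3cs1 late, beside 3.43 in growing and 4.62 in H3.3cs1 early. OIS was the highest of the 4 libraries for each of these genes and H3.3cs1 late the next. RB1 was at 13.8 FPKM in OIS and 7.86 in H3.3cs1 late. Over 16 CDK inhibitors, G1 cyclins and RB family genes 2 were higher in OIS, the kinase gene CDK2 (47.2 against 10.9 FPKM) and RBL2 (p130; 19.2 against 8.71 FPKM), and 2 in H3.3cs1 late, cyclin D2, CCND2 (4.81 against 65.2 FPKM), and its partner CDK6 (14.6 against 31.02 FPKM). After rescaling to the same sum 1 remained higher in OIS. Cyclin D1, CCND1, was at 1174 FPKM in OIS and 641 in H3.3cs1 late. Of 20 p53 targets 4 were higher in OIS and 2 in H3.3cs1 late, with a median of 0.23. GDF15, a secreted stress cytokine (1583 against 132 FPKM), led towards OIS before PLK3, RRM2B and BTG2, while GADD45A (38.7 against 124 FPKM) and the death receptor gene FAS (5.67 against 18.4 FPKM) were higher in H3.3cs1 late. MDM2, the ubiquitin ligase of p53, was at 19.8 FPKM in OIS and 21.4 in H3.3cs1 late.

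LMNB1, the lamin B1 gene whose loss is a known mark of senescence, was low in both libraries: 0.989 FPKM in OIS and 1.09 in H3.3cs1 late, beside 30.8 in growing and 5.03 in H3.3cs1 early. Of 27 genes of the nuclear lamina, HMG proteins and heterochromatin 6 were higher in OIS and none in H3.3cs1 late, but after rescaling to the same sum these counts were 2 and 2. HMGA1 and HMGA2, chromatin proteins tied to senescence foci, led them, HMGA1 at 1287 FPKM in OIS and 204 in H3.3cs1 late, beside 667 in growing and 414 in H3.3cs1 early and HMGA2 at 174 FPKM in OIS and 53.7 in H3.3cs1 late. For both, H3.3cs1 late was the lowest of the 4 libraries. TMPO (11.2 against 4.50 FPKM), SUZ12 of the Polycomb complex (13.6 against 5.40 FPKM), CBX5 (HP1 alpha; 14.4 against 6.22 FPKM) and CBX3 (78.9 against 38.2 FPKM) were closer to the threshold.

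Of 25 H3.3 genes, histone variants and H3 chaperones 2 were called, H3F3B towards H3.3cs1 late and DAXX, an H3.3 chaperone, towards OIS at 113 FPKM in OIS and 38.5 in H3.3cs1 late. HIRA, another H3.3 chaperone, was at 10.8 FPKM in OIS and 8.96 in H3.3cs1 late and ATRX, the partner of DAXX, at 10.6 FPKM in OIS and 8.29 in H3.3cs1 late. Of 55 replication-dependent histone genes 13, on 11 separate loci, were higher in H3.3cs1 late and 1, HIST3H2A (20.3 against 9.66 FPKM), in OIS (16 and 0 genes after rescaling to the same sum). HIST1H1C, a linker histone, stood at 27.5 FPKM in OIS and 149 in H3.3cs1 late, beside 25.4 in growing and 20.7 in H3.3cs1 early, HIST1H4H at 15.1 FPKM in OIS and 44.97 in H3.3cs1 late, HIST2H2BE at 16.4 FPKM in OIS and 39.8 in H3.3cs1 late and HIST1H4E at 1.20 FPKM in OIS and 11.7 in H3.3cs1 late. Histone genes are near-identical copies and mostly lack poly(A) tails, so how fragments were divided among them, and how many transcripts the libraries caught, is uncertain.

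Secreted signals of inflammation were higher in OIS. Of 22 chemokines 11 were higher in OIS and 2 in H3.3cs1 late, with a median of 1.19. The size of that median depended on low members: it was 3.07 with a pseudocount of 0.1, 0.34 with a pseudocount of 5, and 6.21 over the 11 members at 5 FPKM or more in either library. Of the 22, 16 reached 1 FPKM in either library and 3 in both, 14 of them in OIS and 5 in H3.3cs1 late. Members high in OIS alone pass the filter at 5 FPKM, so the 6.21 is no separate support for the direction. Besides those above, CXCL6 (52.7 against 0.0493 FPKM) and the interferon-induced CXCL10 (39.03 against 0.0662 FPKM) were higher in OIS. CXCL2 was at 73.3 FPKM and CCL3 at 40.6 FPKM in OIS and both were listed at 0 in H3.3cs1 late. CCL2, a monocyte chemokine, was one of the genes that went the other way, at 57.1 FPKM in OIS and 130.1 in H3.3cs1 late, beside 76.1 in growing and 22.3 in H3.3cs1 early. CXCL12, a stromal chemokine, stood at 0.236 FPKM in OIS and 2.56 in H3.3cs1 late, beside 26.95 in growing and 20.4 in H3.3cs1 early, so both libraries were below growing and OIS was lowest. Of 27 interleukins, interleukin receptors and colony-stimulating factors 12 were higher in OIS and none in H3.3cs1 late, with a median of 0.46 (1.32 with a pseudocount of 0.1 and 3.16 over the 17 members at 5 FPKM or more). Of the 27, 21 reached 1 FPKM in either library and 14 in both. The 3.16 thus also holds members that passed through OIS alone. IL11, of the IL6 family, stood at 1055 FPKM in OIS and 10.95 in H3.3cs1 late, beside 21.6 in growing and 8.43 in H3.3cs1 early, and LIF, of the same family, at 709.6 FPKM in OIS and 24.5 in H3.3cs1 late, beside 27.1 in growing and 14.7 in H3.3cs1 early. IL6 itself, taken from the higher of its lines, stood at 195 FPKM in OIS and 7.12 in H3.3cs1 late, beside 3.07 in growing and 0.860 in H3.3cs1 early. IL1A (41.04 against 0.0222 FPKM), which encodes IL-1 alpha, the receptor IL1R1 (18.98 against 3.96 FPKM) and the decoy receptor IL13RA2 (22.6 against 0.121 FPKM) were also higher in OIS. IL24 and IL33 were at 7.91 and 2.84 FPKM in OIS and listed at 0 in H3.3cs1 late.

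The list of NF-kappaB and C/EBP regulators, which also holds the target gene ICAM1 and the enzyme gene SOD2, leaned towards OIS as well. Of its 22 genes 17 were higher in OIS and none in H3.3cs1 late, with a median of 1.80. ICAM1, an adhesion molecule and classical NF-kappaB target, stood at 218 FPKM in OIS and 4.10 in H3.3cs1 late, beside 3.70 in growing and 6.56 in H3.3cs1 early. The feedback inhibitors TNFAIP3 (A20; 21.04 against 0.868 FPKM) and NFKBIA (52.3 against 5.91 FPKM), the kinase IRAK2 (30.1 against 1.70 FPKM) and the antioxidant enzyme SOD2 (307 against 25.3 FPKM) followed. CEBPB, the gene of C/EBP beta, was at 76.1 FPKM in OIS and 18.8 in H3.3cs1 late and RELB, an NF-kappaB subunit, at 24.96 FPKM in OIS and 2.12 in H3.3cs1 late. For TNFAIP3, RELB and NFKBIA the H3.3cs1 late level was the lowest of the 4 libraries. Of 18 genes of prostaglandin synthesis and reception 6 were higher in OIS, PTGS2 before PTGES (16.4 against 0.810 FPKM) and PLA2G4A (5.62 against 0.248 FPKM), and 1 was higher in H3.3cs1 late, the receptor gene PTGER4 (1.68 against 7.30 FPKM).

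Of 25 TNF ligands and receptors 6 were higher in OIS and 2 in H3.3cs1 late, and the list's median of 0.077 changed sign after centring. After TNFSF15, TNFRSF1B (TNF receptor 2; 28.5 against 2.04 FPKM) led towards OIS, and TNFSF4 (OX40 ligand; 1.47 against 17.5 FPKM) towards H3.3cs1 late. Of 26 interferon-stimulated genes 16 reached 1 FPKM in either library and 11 in both, and the others could not be called on this scale. Among the 16, 3 were higher in OIS and 1 in H3.3cs1 late. The median of 0.080 over all 26 changed sign after centring. ISG20 (17.1 against 0.113 FPKM) and the factor IRF1 (10.6 against 3.39 FPKM) were higher in OIS and GBP1 (1.27 against 8.64 FPKM) in H3.3cs1 late. Of 18 genes of MHC class I presentation 2, PSMB8 (21.3 against 8.58 FPKM) and ERAP2 (7.10 against 2.80 FPKM), were higher in OIS and none in H3.3cs1 late (none either way after rescaling to the same sum). Complement genes split, 3 of 20 higher in OIS, led by C3 (11.8 against 0.457 FPKM), and 4 in H3.3cs1 late, led by SERPING1, the C1 inhibitor (2.86 against 16.2 FPKM).

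Genes of extracellular proteolysis differed in both directions. Of 25 matrix metalloproteinases, ADAMTS proteases and TIMPs 10 were higher in OIS and 4 in H3.3cs1 late, with a median of 0.53 (0.93 with a pseudocount of 0.1, 0.18 with a pseudocount of 5 and 0.04 over the 15 members at 5 FPKM or more). MMP10, a stromelysin (88.5 against 0.175 FPKM), MMP12, macrophage elastase (24.7 against 0.253 FPKM), and MMP14, a membrane protease (1189 against 279 FPKM), were higher in OIS, while ADAMTS5 (1.41 against 8.70 FPKM), ADAMTS12 (9.76 against 34.4 FPKM), ADAMTS1 (41.7 against 132 FPKM) and the inhibitor TIMP3 (78.6 against 166 FPKM) were higher in H3.3cs1 late. Of 21 serpins and plasminogen activation genes 10 were higher in OIS and 3 in H3.3cs1 late, with a median of 0.76 (1.28 over the 18 members at 5 FPKM or more). TFPI2, a protease inhibitor, stood at 2159.5 FPKM in OIS and 26.1 in H3.3cs1 late, beside 64.3 in growing and 69.8 in H3.3cs1 early. PLAT and PLAU, the plasminogen activators, stood at 2242 against 67.8 FPKM and 2214 against 143 FPKM, OIS first, and SERPINB2, an inhibitor of them, at 1164 FPKM in OIS and 35.4 in H3.3cs1 late. SERPINH1, the collagen chaperone HSP47, went the other way, at 169 FPKM in OIS and 513 in H3.3cs1 late.

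Output of the RAS to ERK pathway was higher in OIS. Of 22 genes of ERK feedback and output 14 were higher in OIS and none in H3.3cs1 late, with a median of 1.55. DUSP6, the ERK phosphatase, stood at 270.3 FPKM in OIS and 19.3 in H3.3cs1 late, beside 18.9 in growing and 11.5 in H3.3cs1 early, with H3.3cs1 late level with growing. PHLDA1 (275 against 22.7 FPKM), IER3 (1941 against 251 FPKM), the RAS pathway inhibitors SPRY2 (128 against 16.1 FPKM) and SPRY4 (82.5 against 12.3 FPKM), DUSP4 (8.53 against 0.373 FPKM) and the ETS factor ETV4 (22.97 against 2.58 FPKM) followed. Of 22 genes of RAS, RAF, MEK and ERK themselves 4 were higher in OIS and 2 in H3.3cs1 late, but after rescaling to the same sum HRAS alone was higher in OIS and 2 in H3.3cs1 late. RRAS2, a RAS-related GTPase, was at 12.8 FPKM in OIS and 73.3 in H3.3cs1 late. Of 24 AP-1, EGR and other immediate early factors 14 were higher in OIS and 1, KLF2 (1.63 against 6.06 FPKM), in H3.3cs1 late, with a median of 1.23. FOS stood at 16.01 FPKM in OIS and 0.473 in H3.3cs1 late, beside 0.557 in growing and 0.662 in H3.3cs1 early and FOSB (12.4 against 0.249 FPKM), MAFF (133 against 13.4 FPKM), JUNB (155 against 19.6 FPKM) and EGR1 (151 against 21.2 FPKM) went with it.

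The EGF family had members on both sides. The ligand genes EREG (89.7 against 0.195 FPKM), AREG (68.5 against 0.135 FPKM) and NRG1 (196 against 27.9 FPKM), the receptor EGFR (50.4 against 8.65 FPKM) and its feedback inhibitor ERRFI1 (352 against 37.7 FPKM) were the 5 of 15 higher in OIS. ERBB2, the co-receptor, stood at 4.80 FPKM in OIS and 41.7 in H3.3cs1 late, beside 25.5 in growing and 25.2 in H3.3cs1 early, and with EGF (0.0499 against 1.48 FPKM) it was higher in H3.3cs1 late. The list's median was 0 as deposited and -0.107 after centring, which is the shift of the centring itself.

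Of 26 ligands and receptors of the FGF, PDGF, VEGF and HGF families 9 were higher in OIS and 5 in H3.3cs1 late (6 and 5 after rescaling to the same sum). HGF stood at 111 FPKM in OIS and 5.12 in H3.3cs1 late, beside 9.64 in growing and 5.25 in H3.3cs1 early, while MET, its receptor, stood at 1.07 FPKM in OIS and 12.5 in H3.3cs1 late, beside 13.3 in growing and 12.2 in H3.3cs1 early. Ligand and receptor thus differed in opposite directions. VEGFA (177 against 31.02 FPKM) and FGF2 (111 against 27.7 FPKM) were higher in OIS, and PDGFRB (20.1 against 64.1 FPKM) and ANGPT1 (2.66 against 9.79 FPKM) in H3.3cs1 late. FGF1 is on several lines of the files, which went different ways: the line used here stood at 25.04 FPKM in OIS and 5.82 in H3.3cs1 late, and another at 0.554 FPKM in OIS and 15.5 in H3.3cs1 late.

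Of 17 genes of the system of insulin-like growth factors (IGF) 5 were higher in H3.3cs1 late and 2 in OIS (1 after rescaling to the same sum), with a median of -0.065. After IGFBP3, IGFBP2 stood at 62.1 FPKM in OIS and 657 in H3.3cs1 late, beside 127 in growing and 42.6 in H3.3cs1 early, and IGFBP7, also a known secreted factor of senescent cells, at 257 FPKM in OIS and 1661 in H3.3cs1 late, beside 289 in growing and 84.01 in H3.3cs1 early. In each of these 3 genes H3.3cs1 late was the highest and H3.3cs1 early the lowest library. Other binding proteins lay within 2-fold, IGFBP4 at 1342 FPKM in OIS and 1322 in H3.3cs1 late, IGFBP5 at 1917 FPKM in OIS and 1254 in H3.3cs1 late and IGFBP6 at 45.1 FPKM in OIS and 58.3 in H3.3cs1 late. The receptor gene IGF1R was at 2.83 FPKM in OIS and 9.66 in H3.3cs1 late. The growth factor IGF2 went the other way (53.8 against 11.002 FPKM), on a locus that its file name joins with INS, so the value does not stand for IGF2 alone.

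The TGF-beta and BMP list had members at both ends. Of 34 ligands, receptors and targets 7 were higher in OIS (4 after rescaling to the same sum) and 9 in H3.3cs1 late, with a median of -0.24. BMP2, INHBA (a subunit of activin A; 781 against 37.5 FPKM) and GDF15 led towards OIS. TGFB2 led towards H3.3cs1 late, before GDF5 (0.0476 against 8.92 FPKM), the activin antagonist follistatin, FST (39.2 against 332 FPKM), and the inhibitor of differentiation ID2 (4.81 against 37.96 FPKM). TGFB1, the most abundant TGF-beta ligand here, was at 135 FPKM in OIS and 66.7 in H3.3cs1 late, just above the threshold. Of 31 Wnt ligands, receptors and antagonists 6 were higher in OIS and 9 in H3.3cs1 late. The antagonist DKK1 (5.31 against 67.7 FPKM) and the receptors FZD2 (3.92 against 49.8 FPKM) and FZD7 (15.5 against 110.1 FPKM) led towards H3.3cs1 late, and the receptor FZD8 (26.7 against 5.26 FPKM) towards OIS. For DKK1, FZD2 and FZD7 the H3.3cs1 late level was close to growing (65.4, 44.1 and 94.7 FPKM there) and OIS was low.

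Contractile genes differed in 1 direction. Of 29 contractile and stress fibre genes 17 were higher in H3.3cs1 late and none in OIS, with a median of -1.15, and 27 of 29 lay below 0. TAGLN, the smooth muscle protein transgelin, stood at 117 FPKM in OIS and 2336 in H3.3cs1 late, beside 1596 in growing and 946 in H3.3cs1 early. ACTA2, smooth muscle actin and a marker of myofibroblasts, stood at 62.3 FPKM in OIS and 608 in H3.3cs1 late, beside 392 in growing and 128 in H3.3cs1 early. In both, H3.3cs1 late was the highest library and OIS the lowest. ACTG2 (62.98 against 507 FPKM), TPM1 (149 against 874 FPKM) and CALD1 (78.9 against 460.5 FPKM) followed CNN1, TAGLN and LMOD1. MYL9 was at 547 FPKM in OIS and 1216 in H3.3cs1 late and FLNA at 231 FPKM in OIS and 527 in H3.3cs1 late, nearer the threshold.

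The list of YAP, TAZ and TEAD targets has 26 genes, and it also holds WWTR1, which is a gene of the regulators. Of the 26, 12 were higher in H3.3cs1 late and 3 in OIS, with a median of -0.76. CTGF (CCN2) stood at 197 FPKM in OIS and 1267 in H3.3cs1 late, beside 366 in growing and 149.8 in H3.3cs1 early and CYR61 (CCN1) at 119.7 FPKM in OIS and 429.7 in H3.3cs1 late, beside 339.5 in growing and 135 in H3.3cs1 early. For CTGF the H3.3cs1 late level was well above growing, for CYR61 it was nearer to growing, and OIS was lower than late in both. CRIM1 (32.7 against 230.3 FPKM) and AJUBA (7.53 against 27.01 FPKM) went with them. WWTR1, the gene of TAZ itself (48.1 against 14.4 FPKM), NT5E (399 against 131 FPKM) and FJX1 (61.4 against 20.3 FPKM) were the members higher in OIS. Several listed genes, such as ANKRD1, TGFB2 and EDN1, also lead the comparison as a whole, and some listed genes are counted in more than 1 list.

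Collagens went both ways, 7 of 25 in each direction (7 and 8 after rescaling to the same sum). The collagen I chain COL1A1 stood at 1012 FPKM in OIS and 5172 in H3.3cs1 late, beside 4156 in growing and 1862 in H3.3cs1 early and COL1A2 at 691 FPKM in OIS and 2719.8 in H3.3cs1 late, beside 2200.1 in growing and 1242 in H3.3cs1 early. COL11A1 (7.23 against 84.7 FPKM), COL8A1 (22.7 against 205 FPKM), COL5A1 (76.5 against 266 FPKM), COL5A2 (45.4 against 127 FPKM) and COL3A1 (132 against 269 FPKM) were also higher in H3.3cs1 late. The collagen VI chains were higher in OIS, COL6A1 at 1816 FPKM in OIS and 474 in H3.3cs1 late, COL6A2 at 2818 FPKM in OIS and 638 in H3.3cs1 late and COL6A3 at 1018 FPKM in OIS and 114 in H3.3cs1 late, beside 538 in growing and 383 in H3.3cs1 early. COL10A1 (13.001 against 0.0333 FPKM), COL7A1 (56.1 against 10.6 FPKM), COL12A1 (189.6 against 43.7 FPKM) and COL5A3 (13.3 against 3.33 FPKM) went with collagen VI.

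Of 23 genes of elastic fibres and collagen cross-linking 13 were higher in H3.3cs1 late and 3 in OIS, with a median of -1.14. LOX, the lysyl oxidase that cross-links collagen and elastin, stood at 50.8 FPKM in OIS and 687 in H3.3cs1 late, beside 362 in growing and 222 in H3.3cs1 early. EFEMP1 (9.13 against 93.2 FPKM), FBLN2 (1.85 against 23.01 FPKM), MFAP4 (9.07 against 62.5 FPKM), the fibrillin gene FBN1 (31.2 against 107 FPKM) and LOXL4 (3.70 against 17.7 FPKM) followed, and MFAP5 was at 5.35 FPKM in H3.3cs1 late and listed at 0 in OIS. FBLN1 (26.1 against 8.85 FPKM), EMILIN1 (148 against 59.04 FPKM) and P4HA3 (4.46 against 1.63 FPKM) were higher in OIS. Of 36 proteoglycans and matricellular proteins 10 were higher in H3.3cs1 late and 4 in OIS, with a median of -0.32. LUM, the proteoglycan lumican, stood at 12.5 FPKM in OIS and 137 in H3.3cs1 late, beside 34.7 in growing and 20.2 in H3.3cs1 early, SPARC at 482 FPKM in OIS and 1945 in H3.3cs1 late and THBS1, thrombospondin 1, at 344 FPKM in OIS and 1413 in H3.3cs1 late. TNC (tenascin C), a matrix protein of wounds, stood at 343 FPKM in OIS and 35.3 in H3.3cs1 late, beside 63.8 in growing and 60.1 in H3.3cs1 early, and POSTN (periostin) at 387 FPKM in OIS and 59.8 in H3.3cs1 late, beside 19.5 in growing and 14.6 in H3.3cs1 early, both highest in OIS.

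Integrins and laminins had 5 of 28 members higher in each direction, and their median of 0.084 changed sign with the scaling. ITGA2 (95.002 against 18.5 FPKM) and ITGB3 (36.6 against 6.79 FPKM) were higher in OIS, and ITGA7 (2.46 against 24.9 FPKM), a laminin receptor, and ITGA11 (11.96 against 40.3 FPKM), a receptor for fibrillar collagen, in H3.3cs1 late. Of 32 cell adhesion molecules 7 were higher in OIS, after ICAM1 the gap junction gene GJA1 (331 against 149 FPKM) and the tetraspanin CD9 (423 against 139.7 FPKM) among them, and 11 in H3.3cs1 late, with CLDN11 (8.22 against 50.04 FPKM), ALCAM (22.3 against 111 FPKM), CDH11 (15.999 against 63.3 FPKM) and CDH2 (N-cadherin; 7.54 against 29.03 FPKM). Of 22 keratins and other intermediate filaments 7 were higher in H3.3cs1 late, led by KRT18 at 13.1 FPKM in OIS and 170.4 in H3.3cs1 late, beside 79.97 in growing and 50.9 in H3.3cs1 early, and 2 at low levels in OIS (none after rescaling to the same sum). PLEC, the linker plectin, counts among the 7 but was listed at 0 in OIS and H3.3cs1 early, at 128 FPKM in growing and 133 in H3.3cs1 late.

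**Figure D3:**
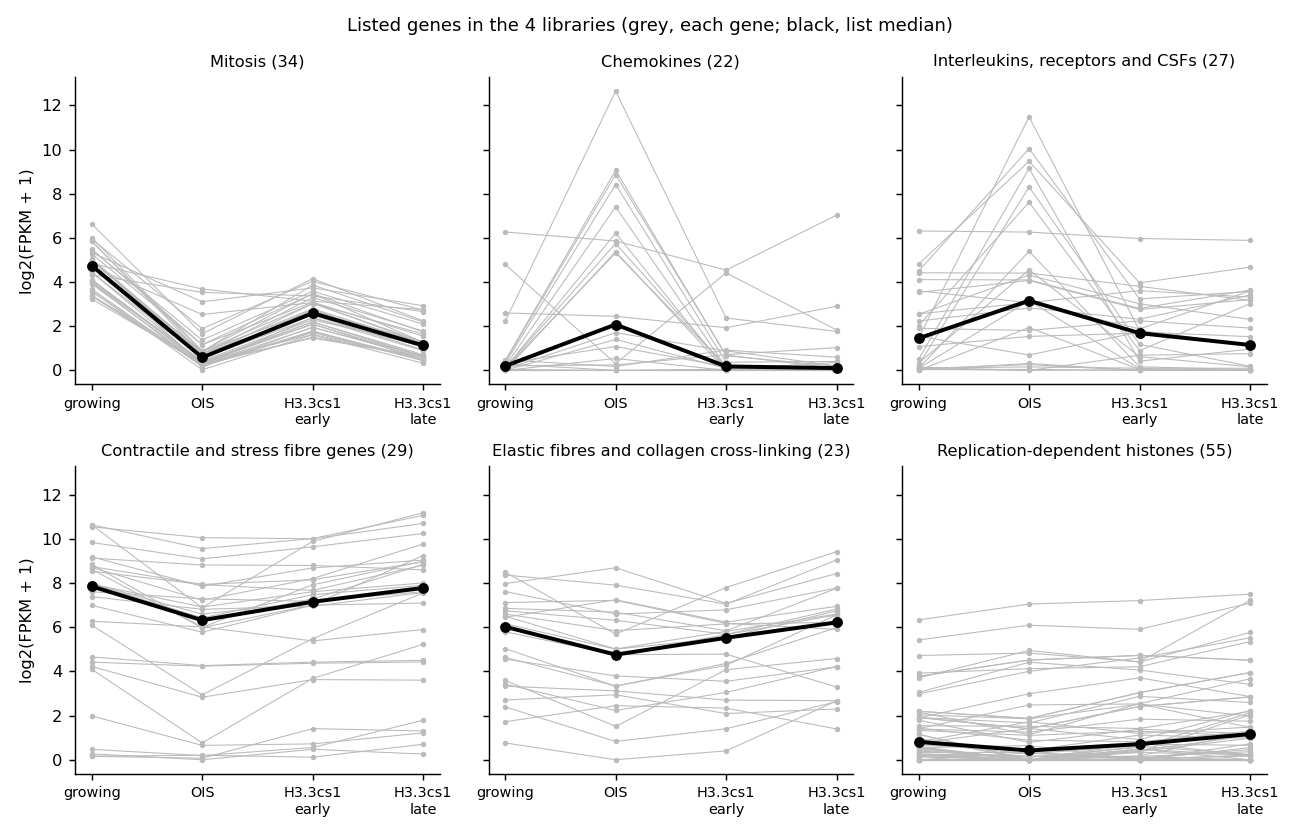
Levels of 6 gene lists, log2(FPKM + 1) on the y axis, in the 4 libraries on the x axis, with each gene in grey and the list's median in black; lines join the values of a gene and imply no order in time. The mitosis list is low in OIS and H3.3cs1 late, the chemokine and interleukin lists peak in OIS, and the contractile and elastic fibre lists have their lowest median in OIS.

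Transcription factors of mesenchyme and lung fibroblasts leaned towards OIS, with 8 of 34 higher there and 1 in H3.3cs1 late (6 and 2 after rescaling to the same sum) and a median of 0.38. ZEB1, a repressor of epithelial genes, stood at 57.4 FPKM in OIS and 7.95 in H3.3cs1 late, beside 18.8 in growing and 10.6 in H3.3cs1 early. TBX3 (70.1 against 14.6 FPKM), PRRX1 (15.6 against 2.79 FPKM), TBX2 (99.5 against 24.4 FPKM) and the lung factor FOXF1 (111 against 39.3 FPKM) followed, and OSR1 (1.84 against 36.8 FPKM) was the gene higher in H3.3cs1 late. PRRX1 was at 22.8 FPKM in growing, so the difference lay in a low H3.3cs1 late level. Of 35 Notch and axon guidance genes 5 were higher in OIS and 4 in H3.3cs1 late, and their median of 0.017 changed sign with the scaling. The Notch target HEY1 (8.65 against 0.392 FPKM), the ligand DLL4 (5.09 against 0.364 FPKM) and SEMA3A (38.4 against 5.80 FPKM) were higher in OIS, and SEMA3D (0.185 against 7.87 FPKM), NTN4 (5.81 against 49.5 FPKM) and the ligand JAG2 (0.808 against 3.96 FPKM) in H3.3cs1 late.

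Vasoactive peptides, their receptors and stanniocalcins were divided, 4 of 22 higher in OIS and 6 in H3.3cs1 late. STC1 and the bradykinin receptor gene BDKRB2 (135 against 6.36 FPKM) were higher in OIS, whereas STC2 (68.2 against 258 FPKM), KISS1, EDN1 and the clearance receptor NPR3 (0.685 against 7.23 FPKM) were higher in H3.3cs1 late. NPPB, the precursor of a natriuretic peptide, was at 16.1 FPKM in H3.3cs1 late, 0.284 in growing, 0.180 in H3.3cs1 early and listed at 0 in OIS. The stanniocalcin genes thus went opposite ways. Of 30 ion channel genes 5 were higher in OIS, with the irritant receptor TRPA1 (93.9 against 1.07 FPKM) and the potassium channel gene KCNG1 (130.4 against 4.14 FPKM) in front, and 8 in H3.3cs1 late, with the sodium channel gene SCN9A (0.951 against 30.4 FPKM) in front.

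Among metabolic genes, 8 of 27 of glycolysis and the hypoxia response were higher in OIS and 1 in H3.3cs1 late (6 and 2 after rescaling to the same sum), with a median of 0.50. ENO2 (70.7 against 17.5 FPKM), the kinase PDK1 (16.5 against 4.84 FPKM) and hexokinase 2, HK2 (30.3 against 9.85 FPKM), were higher in OIS. The gene higher in H3.3cs1 late was SLC2A1, the glucose transporter GLUT1, at 22.8 FPKM in OIS and 169 in H3.3cs1 late, beside 94.7 in growing and 31.7 in H3.3cs1 early, and its relative SLC2A3 (GLUT3) went the other way (76.2 against 34.2 FPKM). Of 26 genes of cholesterol and fatty acid synthesis 4 were higher in H3.3cs1 late, among them LSS, lanosterol synthase (17.3 against 55.3 FPKM), and 1 in OIS, the feedback gene INSIG1 (45.9 against 11.8 FPKM). Of 31 genes of amino acid transport and tRNA charging 8 were higher in H3.3cs1 late and 4 in OIS. The transporters SLC7A11 (2.77 against 12.5 FPKM), SLC3A2 (42.3 against 137 FPKM) and SLC7A5 (24.3 against 66.6 FPKM) were among the 8, and SLC6A15 at 102 FPKM in OIS and 0.694 in H3.3cs1 late, beside 4.79 in growing and 1.98 in H3.3cs1 early led the other side. In each of the 8 genes OIS lay below growing, as in SLC3A2 with 132 FPKM in growing.

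Of 29 genes of the lysosome and of cathepsins 4 were higher in OIS and 1 in H3.3cs1 late (4 and 6 after rescaling to the same sum), with a median of -0.17. The cysteine protease genes CTSS (15.5 against 0.0985 FPKM), CTSK (36.6 against 10.3 FPKM) and CTSB (781 against 317 FPKM) and the cholesterol exporter NPC1 (22.1 against 6.12 FPKM) were higher in OIS, and the fucosidase gene FUCA1 (1.77 against 15.01 FPKM) in H3.3cs1 late. GLB1, the source of senescence-associated beta-galactosidase activity and joined here with TMPPE, was at 39.7 FPKM in OIS and 50.2 in H3.3cs1 late. Of 28 NRF2 targets and metallothioneins 6 were higher in OIS, with MT1X (308 against 27.2 FPKM), AKR1B1 (617 against 67.001 FPKM) and MT2A in front, and 2 in H3.3cs1 late.

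Stress genes did not follow 1 pattern. Of 22 genes of the unfolded protein and integrated stress response 5 were higher in OIS, among them TRIB3 (68.05 against 8.88 FPKM) and DDIT4 (38.9 against 5.02 FPKM), and 2 in H3.3cs1 late (5 after rescaling to the same sum), the amino acid synthesis genes PSAT1 (7.06 against 46.3 FPKM) and ASNS (7.74 against 26.1 FPKM). Of 22 heat shock protein genes 8 were higher in H3.3cs1 late and 1, the mitochondrial chaperonin gene HSPD1 (164 against 75.4 FPKM), in OIS (none after rescaling to the same sum), with a median of -0.52. The small heat shock protein gene CRYAB stood at 1.11 FPKM in OIS and 42.3 in H3.3cs1 late, beside 4.40 in growing and 13.3 in H3.3cs1 early, and HSPB8 (4.24 against 30.8 FPKM), HSPB1 (287 against 1075 FPKM) and DNAJB4 (11.4 against 91.7 FPKM) went with it. The small heat shock protein genes HSPB2 and HSPB7, the co-chaperone gene BAG3 (34.2 against 81.7 FPKM) and HSPA1A, an inducible HSP70 (4.57 against 11.99 FPKM), made up the rest of the 8.

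All 30 ribosomal protein genes listed lay above 0, between 0.24 and 1.12, with a median of 0.80, and 3 passed 2-fold, RPS3, RPL3 and RPS18 (none after rescaling to the same sum or quantile normalization). Under those scalings the median was 0.56 and 0.41. Of 25 housekeeping genes 1, the transferrin receptor gene TFRC (99.6 against 39.6 FPKM), was higher in OIS and 1, REEP5 (34.2 against 71.1 FPKM), in H3.3cs1 late, with a median of 0.39. These values give the size of differences among genes used as references, and the medians of both lists lay above the 0.107 of all compared loci.

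**Figure D4:**
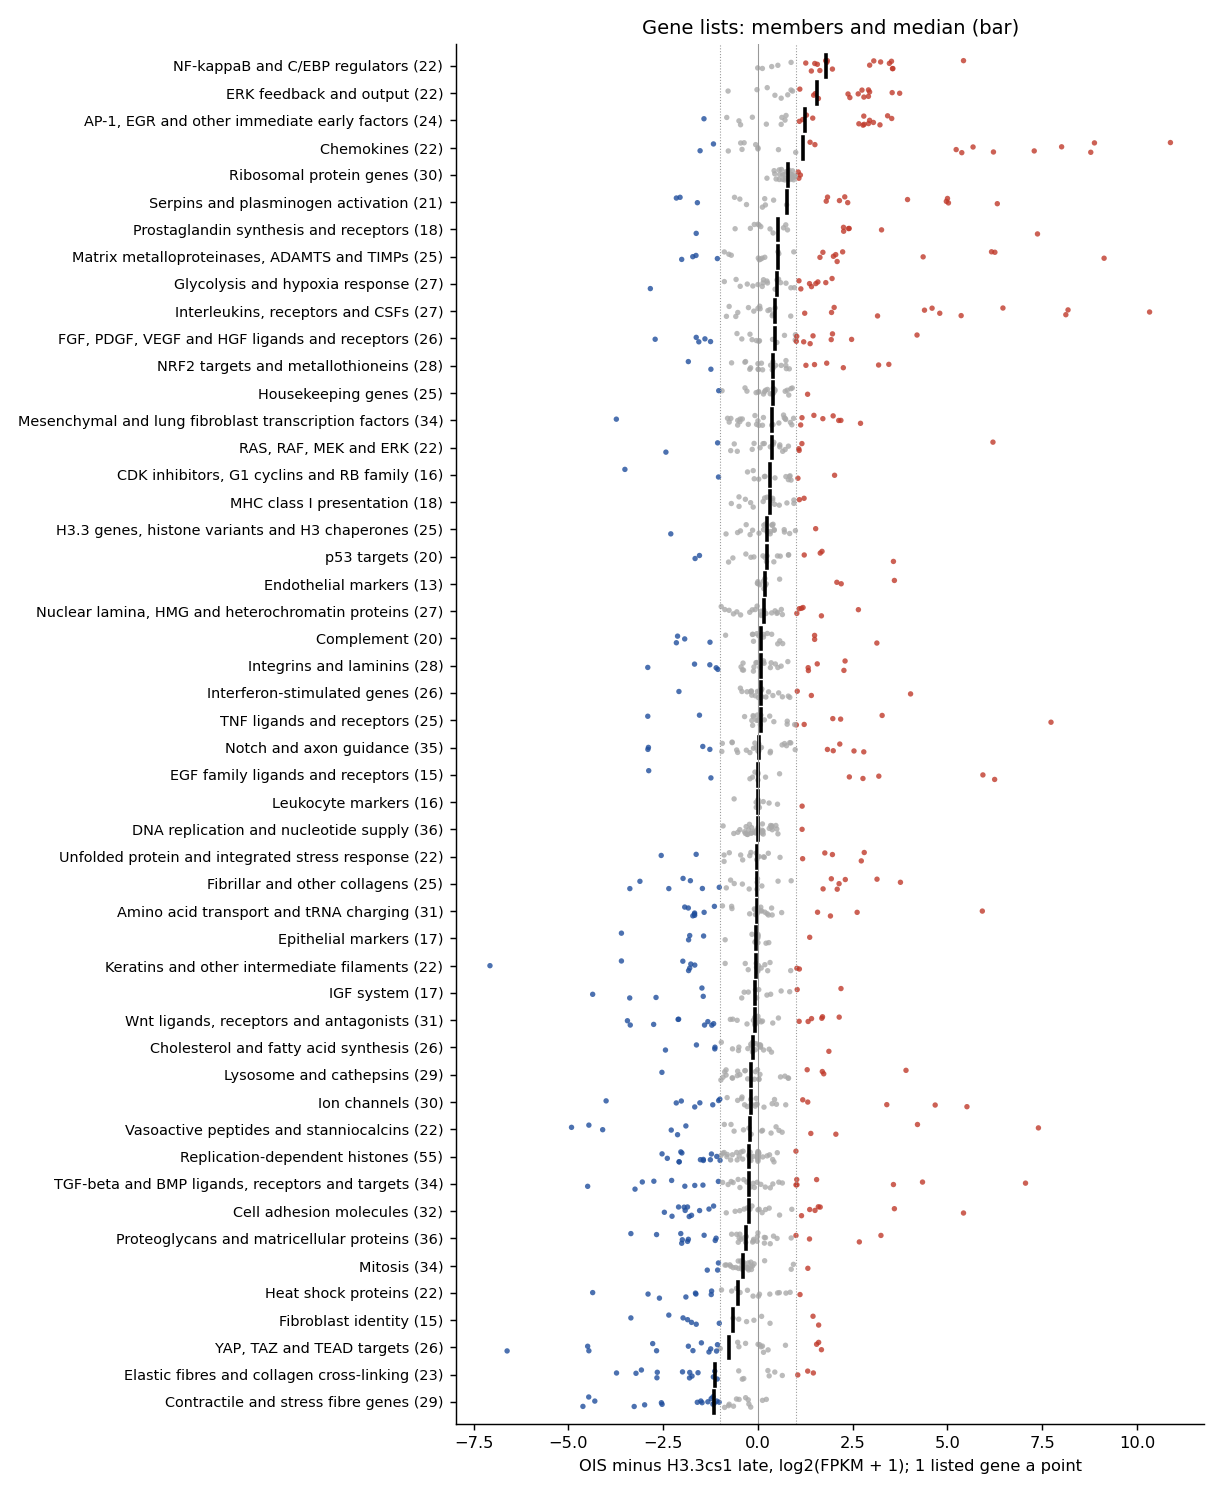
Each row is 1 of the 50 gene lists, with the number of listed genes in brackets, ordered by the median (black bar); each point is a listed gene's difference, OIS minus H3.3cs1 late, in log2(FPKM + 1), coloured where it is at least 2-fold and including genes listed at 0 in one library. NF-kappaB and C/EBP regulators have the highest median as plotted (1.80), which chemokines pass with a pseudocount of 0.1 (3.07 against 1.99); contractile (-1.15) and elastic fibre genes (-1.14) have the lowest, in an order that turned after rescaling to the same sum (-1.33 against -1.38).

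Of the 11836 compared loci, 58 were at least 2-fold above growing cells in OIS and at least 2-fold below them in H3.3cs1 late. Another 78 were lower in OIS and higher in H3.3cs1 late. Both comparisons use the same growing library, so these counts share its values. They rest on the values as deposited and were not repeated after rescaling. For scale, 17.4% of the 12257 loci counted above were at least 2-fold apart either way between growing and OIS, and 8.96% between growing and H3.3cs1 late. Besides STC1, TFPI2 and MMP1, the first group held PLAU, TMEM158 (742 against 31.8 FPKM), the neuropeptide gene GAL (60.8 against 1.52 FPKM) and the peptidase gene ANPEP (205 against 9.36 FPKM). Besides ANKRD1, CPA4 and OXTR, the second held the growth arrest ligand GAS6 (81.9 against 1381 FPKM), the receptor KIT (0.187 against 23.1 FPKM) and the nucleotide synthesis enzyme PRPS1 (16.4 against 276 FPKM). The genes named here beyond the 15 largest and the lists were chosen after their values were seen.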

How the data were processed

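Poly(A) RNA of 4 IMR90 libraries was sequenced (TruSeq v2 libraries, per the labels' protocols). The authors deposited 1 FPKM value per locus and library. Per the submitters' processing notes the build was hg19 and the tools included Cufflinks 2.1.1, TopHat2 2.0.3 and Bowtie2. How strand and reads with several matches were handled, and whether libraries were normalized to each other, is not given in the sources used here. No counts were at hand, so depth is unknown, and FPKM moves with the other transcripts of a library. The header line of each file carries a word that names another library; samples were taken from the deposition's own assignment of files.

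Named loci with an FPKM of at least 1 in OIS or H3.3cs1 late were compared as log2(FPKM + 1) (Python 3.11.15, pandas 2.3.3, numpy 2.4.6) and called at 2-fold. Loci joining several genes kept their joined names, and of a symbol on several lines the line with the highest FPKM was used for the lists (540 symbols on 2019 lines). The calling step was tested on simulated data. With 1 library a group no test was possible. The 50 gene lists (1271 entries, 1223 genes), the named genes and the comparison itself were chosen with earlier results of these data known. Named were IL6, IL8, LMNB1, CCNA2, RB1, CDKN1A, CDKN2A, CDKN2B, HRAS, H3F3A, H3F3B and CTSL1, the 15 largest differences each way among loci of 1 gene above 0 in both libraries and at 5 FPKM or more in the higher, without small or other non-coding RNAs and clone names, the 5 highest loci of each library, up to 5 loci each way listed at 0 in one library, and members of each list, those with the largest differences and others that show its spread. Alternatives were pseudocounts of 0.1 and 5, a filter at 5 FPKM and none, 3 rescalings, summed lines, and leaving out joined loci or loci listed at 0. Promoters came from RefSeq (GRCh38.p14). Coordinates of the loci themselves are not used here, and a few genes are not reported here.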

Additional observations from a re-analysis of the deposited data

Results flagged for a closer look

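Genes on opposite sides of the growing library stand out because 1 state lay at least 2-fold above and the other at least 2-fold below it. With 1 library a group these differences between states were not tested. Among loci of 1 gene above 0 in all 4 libraries and at 5 FPKM or more in either state, the 5 largest towards OIS were STC1 (difference OIS minus H3.3cs1 late 7.40 on the log2(FPKM + 1) scale), TFPI2 (6.32), MMP1 (6.16), the amino acid transporter gene SLC6A15 (5.92) and LCE2A, a late cornified envelope gene (5.75). Towards H3.3cs1 late they were ANKRD1 (-6.62), CPA4 (-5.83), OXTR (-5.51), MAMDC2 (-4.90) and CNN1 (-4.62).

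Among loci without a gene name, which the comparison leaves out, 221 were at least 2-fold higher in OIS than in both H3.3cs1 late and growing. Of 1187 unnamed loci past the filter 272 were higher in OIS and 353 in H3.3cs1 late. What these loci are was not determined.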

How the results depend on the processing

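With a pseudocount of 5 the loci at least 2-fold higher numbered 721 in OIS and 521 in H3.3cs1 late, against 1373 and 1051, as that pseudocount shrinks differences of low loci. The share of loci apart that were higher in OIS, 56.6%, was 53.9% with a pseudocount of 0.1 and 58.8% with a filter at 5 FPKM, and it turned to 41.1% after rescaling to the same sum (1030 and 1479 loci), 47.9% after centring (1165 and 1268) and 49.2% after quantile normalization (1186 and 1227); why the deposited scale differs was not tested. List medians moved by less than 0.58 in 481 of 500 cases, and none of those at or beyond 1 in size reversed. Many of the 481 could not have come out otherwise. Lists hold all their members, so running without a filter left every list median as it was. Centring shifted each by the same 0.107, and the factor for the same sum was too small to shift any by 0.58. The 481 is therefore no measure of stability. The other 19 were 12 with the filter at 5 FPKM, 3 with a pseudocount of 0.1, 1 with a pseudocount of 5 and 3 without loci listed at 0. With the filter, which leaves out low members, the EGF family moved to 2.77, prostaglandin genes from 0.54 to 2.26, Wnt genes from -0.08 to -1.19, vasoactive peptides from -0.21 to -1.90, keratins from -0.04 to -1.67 and replication-dependent histones from -0.23 to -1.11. A member high in only 1 library passes that filter, so these medians are no separate support for a direction. Under the 3 rescalings 42 of 50 medians kept their sign, and 8 (nuclear lamina and heterochromatin, EGF family, integrins and laminins, interferon-stimulated genes, complement, Notch and axon guidance, TNF ligands and receptors, leukocyte markers) changed sign or came to 0 at 3 decimals. No paired analysis was possible because each group has 1 library, and for the same reason no library could be left out. Depth is unknown, so no floor is given for values near 0.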

Other observations

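Some expressed genes were listed at 0 in 1 of both libraries, and several of these are neighbours in the genome. Of genes at 5 FPKM or more in growing, PLEC, PLXNB2, SETD5, SH3PXD2A and ZER1 were listed at 0 in OIS, and ATP13A3, DIP2C, EP400, MED29, PAF1, SAMD4B, PPP6R2 and SBF1 in H3.3cs1 late. In the order of RefSeq genes MED29, PAF1 and SAMD4B each lie 1 place from another of the 3, and PPP6R2 lies 1 place from SBF1. PAF1, a subunit of an elongation complex, was at 30.8 FPKM in growing, 24.3 in OIS and 30.7 in H3.3cs1 early. MED29, a Mediator subunit, was at 11.49, 15.6 and 17.9 FPKM in the same libraries, and SAMD4B at 30.6, 44.5 and 28.7. PLXNB2, a semaphorin receptor, was at 128 FPKM in H3.3cs1 late, with 106 in growing and 92.97 in H3.3cs1 early. These values are therefore not read as absence.

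Loci of small RNAs also differed widely. Of 145 compared 30 were at least 2-fold higher in OIS and 38 in H3.3cs1 late. MIR210, a microRNA locus known from the response to low oxygen, was at 154 FPKM in OIS and listed at 0 in the other 3 libraries, and SNORD12B was at 682 FPKM in H3.3cs1 late and listed at 0 in the others. Poly(A) libraries do not measure mature small RNAs, so these are values of short loci and not levels of the mature RNA.

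LCE2C, a late cornified envelope gene, was at 77.9 FPKM in OIS and 0.233 in H3.3cs1 late. NAMPT, the enzyme of NAD salvage, stood at 243 FPKM in OIS and 6.13 in H3.3cs1 late, and MME, the peptidase neprilysin, at 59.9 and 0.659. GAS6, a ligand of TAM receptors, stood at 81.9 FPKM in OIS and 1381 in H3.3cs1 late. These genes were chosen after their values were seen.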
